A study of Mus musculus with 4 samples.

Results

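The NF-κB feedback and signalling regulators examined here were 5 genes, Nfkbiz, Nfkbia, Nfkbid, Tnfaip3 and Malt1, and their members in the data were the intervals of the authors' ATAC-seq table that lay nearest to a transcription start site (TSS) of one of these genes. By this rule 19 of the 3812 intervals were members, of which Nfkbiz held 8, Tnfaip3 held 2 and Malt1 held 9, while Nfkbia and Nfkbid held 0. The genes were selected on the measured values of the same comparison, so their direction and size are given as a description and were not tested.

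ATAC-seq uses the transposase Tn5 to cut and tag open chromatin, and sites with more reads are the more accessible ones. RAW macrophages, an established mouse cell line, were grown in DMEM with 10% FCS and were either left untreated (control, 2 samples) or given 5 mM methyl-β-cyclodextrin (MCD), a cyclic sugar that draws cholesterol out of membranes, in 1 mg/ml BSA for 1 hr (MCD, 2 samples). The study asked which sites opened or closed when macrophage cholesterol was reduced. All cells came from 1 line, and nothing in the labels says whether the samples of a condition were separate cultures.

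The table gives for each interval the authors' mean normalized reads in control and in MCD on the log2 scale. These means were turned back to reads for the levels given here, and differences are MCD minus control on the log2 scale. A row with a higher mean in MCD is called gained and a row with a lower mean is called lost. The columns used hold means over 2 samples and no value per sample, so the spread between replicates and the depth of each sample are unknown and no difference below carries an error. Every interval was 201 bp wide. The table holds only intervals that the study's comparison kept, and no row had a difference between -0.44 and 0.49, so an interval that is not listed may be open, closed or unchanged. More cells with an open site and more cuts per cell cannot be told apart in these bulk samples.

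NF-κB is a family of transcription factors that inhibitor proteins of the IκB family hold in the cytoplasm until a signal from a receptor activates the IκB kinase (IKK). Many genes that NF-κB switches on encode proteins that limit or redirect the same pathway, and macrophages use these feedback loops to shape the inflammatory response. Among the 5 genes, Malt1 encodes the protease of the CARD-BCL10-MALT1 complex, which relays receptor signals to IKK. Nfkbia encodes IκBα, the inhibitor that is resynthesised to end NF-κB activity, and Tnfaip3 encodes A20, which edits ubiquitin chains to restrain signalling. Nfkbiz and Nfkbid encode IκBζ and IκBNS, IκB proteins of the nucleus that alter which genes NF-κB controls.

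The reference sequences of the intervals were searched on both strands for consensus motifs, among them the κB consensus bound by NF-κB and TGANTCA, the consensus of the AP-1 factors Fos and Jun. The 3 member intervals that held either motif are shown because they are the exceptions among the members. All sequences are from GRCm38, on the plus strand, with the motifs in capitals. The Nfkbiz interval at chr16:55776376-55776576 held TGAGTCA and, further on, a run of 11 bases that matched the κB consensus at 2 overlapping places, 1 on each strand. The Tnfaip3 intervals at chr10:19026794-19026994 and chr10:19078071-19078271 each held 1 AP-1 consensus and no κB consensus.
Nfkbiz, downstream: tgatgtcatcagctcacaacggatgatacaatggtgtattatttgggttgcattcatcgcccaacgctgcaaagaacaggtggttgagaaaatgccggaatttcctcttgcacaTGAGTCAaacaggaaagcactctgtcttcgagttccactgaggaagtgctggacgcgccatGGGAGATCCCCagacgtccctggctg
Tnfaip3, near upstream: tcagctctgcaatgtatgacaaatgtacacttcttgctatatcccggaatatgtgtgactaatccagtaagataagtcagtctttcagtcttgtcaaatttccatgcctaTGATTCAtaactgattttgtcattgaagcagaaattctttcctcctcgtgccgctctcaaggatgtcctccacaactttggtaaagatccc
Tnfaip3, far upstream: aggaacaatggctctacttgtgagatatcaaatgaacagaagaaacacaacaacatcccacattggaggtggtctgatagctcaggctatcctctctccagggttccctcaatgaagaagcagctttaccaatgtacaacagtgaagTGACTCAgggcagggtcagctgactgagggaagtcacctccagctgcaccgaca

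A pair of intervals in Nfkbiz intron 2 is shown beside them because it had the largest differences of that gene by the authors' means, at chr16:55828933-55829133 and chr16:55831190-55831390. Neither held the κB or the AP-1 consensus, so no letter is in capitals.
Nfkbiz, intron 2, first: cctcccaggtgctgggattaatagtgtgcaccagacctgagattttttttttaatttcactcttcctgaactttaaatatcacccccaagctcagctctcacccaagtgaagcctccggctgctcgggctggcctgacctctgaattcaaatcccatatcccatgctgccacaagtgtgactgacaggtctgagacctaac
Nfkbiz, intron 2, second: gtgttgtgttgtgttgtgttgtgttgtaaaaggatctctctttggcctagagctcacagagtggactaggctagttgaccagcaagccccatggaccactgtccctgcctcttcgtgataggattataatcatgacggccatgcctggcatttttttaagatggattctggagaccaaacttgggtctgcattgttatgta

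Nfkbia, the classical κB-driven feedback gene, held no listed interval, so for this gene the stretch around the κB consensus just before its start is shown. It was taken from RefSeq's promoter of GRCm38.p6 (chr12:55492648-55492696), ends at the base before the TSS and is written on the minus strand, which is the strand of the gene, with the κB consensus in capitals. The consensus was read on the strand opposite to the gene.
Nfkbia, promoter: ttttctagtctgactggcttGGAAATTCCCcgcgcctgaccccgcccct

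All 19 member intervals were gained, against 73.2% of all rows of the table. A difference of at least 1 was reached by 17 of the 19, against 57.3% of all rows. The median difference of the members was 1.94, a 3.83-fold ratio of the means, from 0.79 to 3.05. Over all rows the median was 1.14, and over the 2790 gained rows it was 1.39, or 2.63-fold. Of the 19 intervals, 6 were among the 5% of rows with the largest difference and 9 among the top 10%. The members took the direction that most of the table took. Since they were selected on this comparison, nothing is read from their count or median.

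Most members started from low levels. The median of the 19 was 18.9 normalized reads in control and 65.9 in MCD, where all gained rows had medians of 29.2 and 78.6. By gene, the control medians were 12.7 for Malt1, 20.5 for Nfkbiz and 64.6 for Tnfaip3. In control, 15 of the 19 intervals were below the median of the gained rows. The members ranged from 5.53 to 105 reads in control and from 32.3 to 180.3 in MCD. At the lowest levels a difference of a few reads gives a large ratio, and with 10 reads added to each mean the median difference was 1.52 in place of 1.94, and the largest was 1.96.

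**Figure D1:**
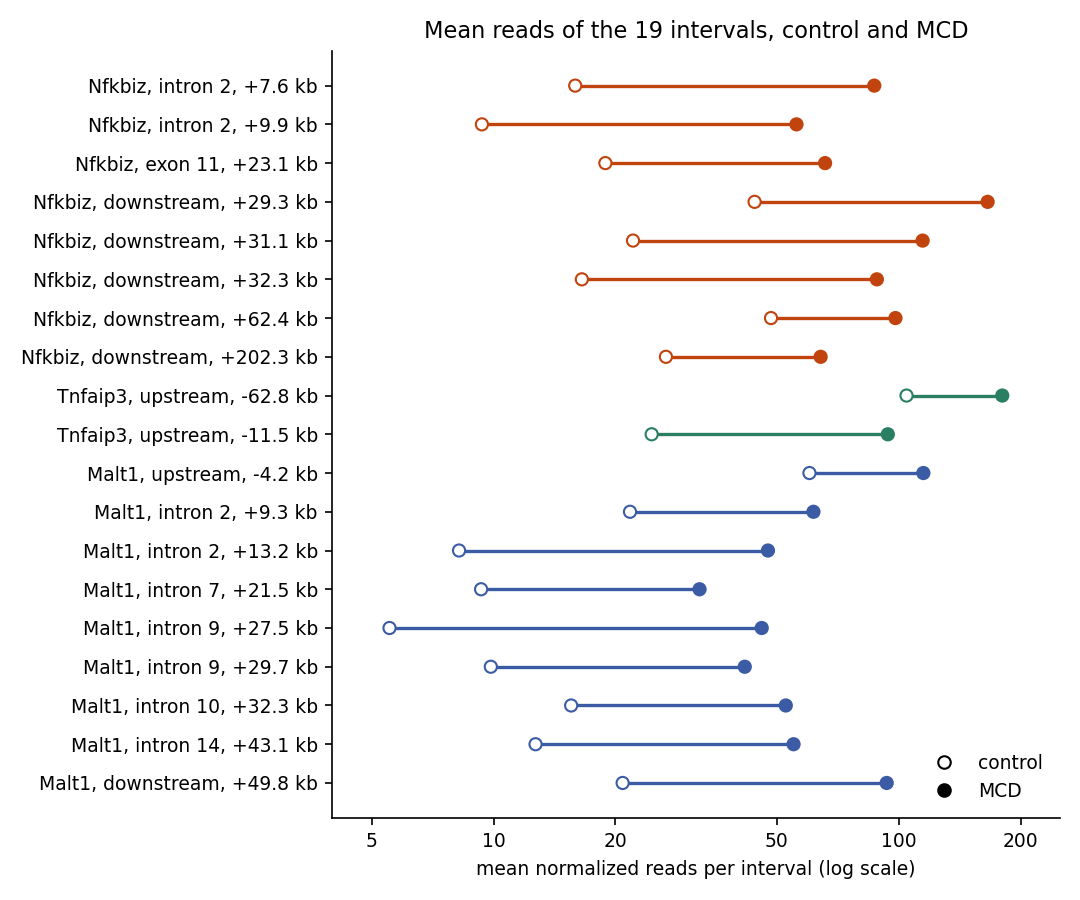
Mean normalized reads (log axis) of each of the 19 member intervals in control (open circles) and MCD (filled circles), by gene, with the place and the distance from the start of the gene's main transcript on the left. Every MCD circle lies to the right of its control circle, and the longest line is that of Malt1 intron 9, from 5.53 to 45.9 reads.

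**Figure D2:**
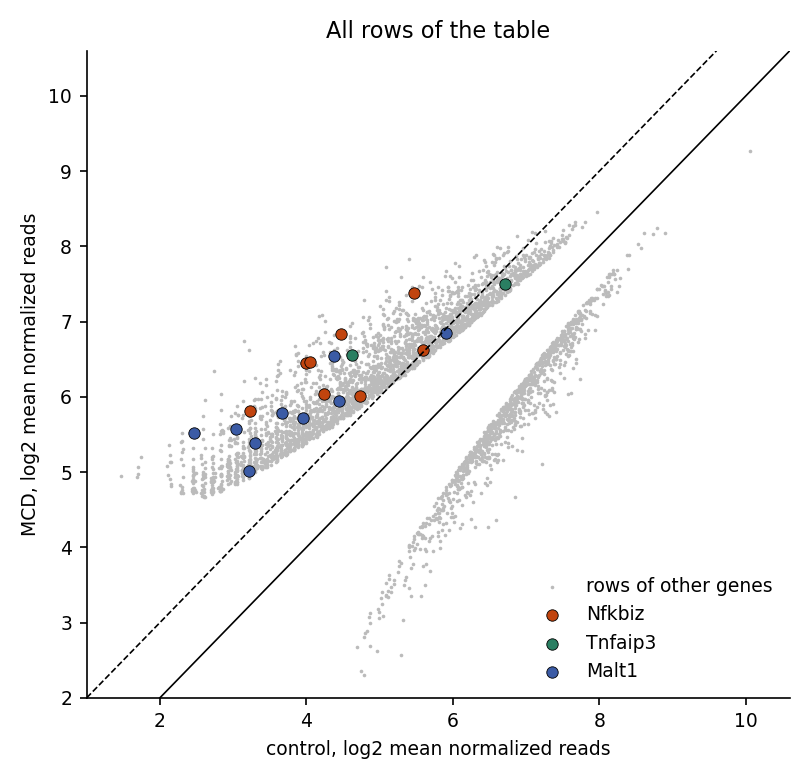
Log2 mean normalized reads in MCD against control for the 3812 rows of the table, with the rows of Nfkbiz, Tnfaip3 and Malt1 in colour. The solid line marks equal means and the dashed line a difference of 1, and 17 of the 19 coloured points lie above the dashed line.

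Nfkbiz had the higher levels of the 2 genes with many intervals. The gene, ENSMUSG00000035356.17, lies on the minus strand at chr16:55811375-55838899, and its main transcript has 14 exons. Its 8 intervals had a median of 20.5 reads in control and 87.7 in MCD, with a median difference of 2.14. They fell into a cluster of 6 over the gene and just past its end and 2 lone intervals further downstream. The cluster spanned 24914 bp with differences from 1.80 to 2.58, whereas the lone intervals had differences of 1.02 and 1.27.

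Inside Nfkbiz, 2 intervals lay in intron 2. The first, 9866 bp past the start of the main transcript, went from 9.36 reads in control to 56.0 in MCD, a difference of 2.58 and the largest of the gene. The second, 7609 bp past the start, went from 15.9 to 87.1 reads, a difference of 2.45. With 10 reads added to each mean the first had a difference of 1.77 and the second 1.91. The largest of the gene was then 1.96, at chr16:55807706-55807906 past its 3' end. The sequences of both intron 2 intervals are printed above, and the first of them lay 6895 bp before the start of a shorter Nfkbiz transcript. Another interval (chr16:55815678-55815878) overlapped coding exon 11 and rose from 18.9 to 65.9 reads, a difference of 1.80. It was the only member interval centred in an exon of a main transcript.

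Past the 3' end of Nfkbiz lay 3 intervals within a few kb of each other. The nearest to the gene (chr16:55809477-55809677) had the highest MCD level of Nfkbiz, with 44.1 reads in control and 166 in MCD, a difference of 1.91. The next (chr16:55807706-55807906) went from 22.1 to 115 reads, a difference of 2.38. The third (chr16:55806477-55806677) went from 16.5 to 88.4 reads, a difference of 2.42. The differences of these 3 sites, past the end of the gene, lay within the range of those in the gene body.

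The lone interval that held the AP-1 and κB motifs, 62423 bp past the start of Nfkbiz, had the highest control level of the gene, 48.4 reads, and rose to 98.2 in MCD. Its difference of 1.02 was the smallest of Nfkbiz. The other lone interval (chr16:55636453-55636653), 202346 bp past the start, went from 26.6 to 64.2 reads, a difference of 1.27. These distant intervals were assigned to Nfkbiz only as the nearest gene with an Entrez ID, and with all annotated transcripts their nearest starts were those of Gm26369 and Gm23003.

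Malt1 had lower levels and more intervals inside the gene. The gene, ENSMUSG00000032688.9, lies on the plus strand at chr18:65430938-65479067, and its main transcript has 16 exons. Its 9 intervals spanned 54254 bp, with 7 centred in introns, 1 upstream and 1 downstream. Their medians were 12.7 reads in control and 52.7 in MCD, and the median difference was 2.08.

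The largest difference of all members was in Malt1 intron 9 (chr18:65458344-65458544), where 5.53 reads in control became 45.9 in MCD, a difference of 3.05 and a ratio of 8.30. It ranked 18 among the 3812 rows. Its near end reached into exon 9, and its centre lay in the intron. This was also the lowest control level of any member, and with 10 reads added to each mean its difference was 1.85. Repeats covered 60.7% of the interval in the reference. The rows most like it in both means, by distance on the log2 scale, were those of Prkch (6.02 to 47.4 reads), 1500015A07Rik (6.02 to 43.6 reads) and Zyg11b (4.92 to 45.9 reads).

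The second interval of intron 9 (chr18:65460581-65460781) went from 9.84 to 41.7 reads, a difference of 2.08. In intron 2, the interval at chr18:65444061-65444261 went from 8.22 to 47.6 reads, a difference of 2.53. Its neighbour in the same intron (chr18:65440127-65440327) went from 21.7 to 61.6 reads, a difference of 1.50. Intron 2 and intron 9 each held a pair of intervals whose differences were about 1 apart on the log2 scale.

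The remaining introns of Malt1 held single intervals with control levels from 9.32 to 15.5 reads. Intron 7 (chr18:65452379-65452579) had 9.32 reads in control and 32.3 in MCD, the lowest MCD level of the members, with a difference of 1.79. Intron 10 (chr18:65463106-65463306) went from 15.5 to 52.7 reads, a difference of 1.76. Intron 14 (chr18:65473951-65474151) went from 12.7 to 55.0 reads, a difference of 2.12.

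Outside Malt1 lay 2 flanking intervals, with differences on either side of the median of the gene. The upstream interval (chr18:65426610-65426810), 4239 bp before the start of the main transcript, had the highest control level of the gene, 60.25 reads, and reached 115 in MCD, so its difference of 0.93 was the smallest of Malt1. With all annotated transcripts the nearest start to this upstream interval was that of Gm22567. The downstream interval (chr18:65480663-65480863) went from 20.8 to 93.5 reads, a difference of 2.17. Repeats covered 62.2% of this downstream interval. It and the intron 9 interval with the largest difference were the only members more than 50% covered by repeats. Over all rows 5.33% were.

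Tnfaip3 had 2 intervals, both upstream of the gene and none within it. The gene, ENSMUSG00000019850.11, lies on the minus strand at chr10:19000910-19015657. The nearer interval, 11484 bp before the start of the main transcript, went from 24.6 reads in control to 94.1 in MCD, a difference of 1.94. The farther one, 62761 bp before the start, had the highest levels of all members, 105 reads in control and 180.3 in MCD, and its difference of 0.79 was the smallest of all members. With all annotated transcripts the nearest start to the farther interval was that of 1700124M09Rik.

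**Figure D3:**
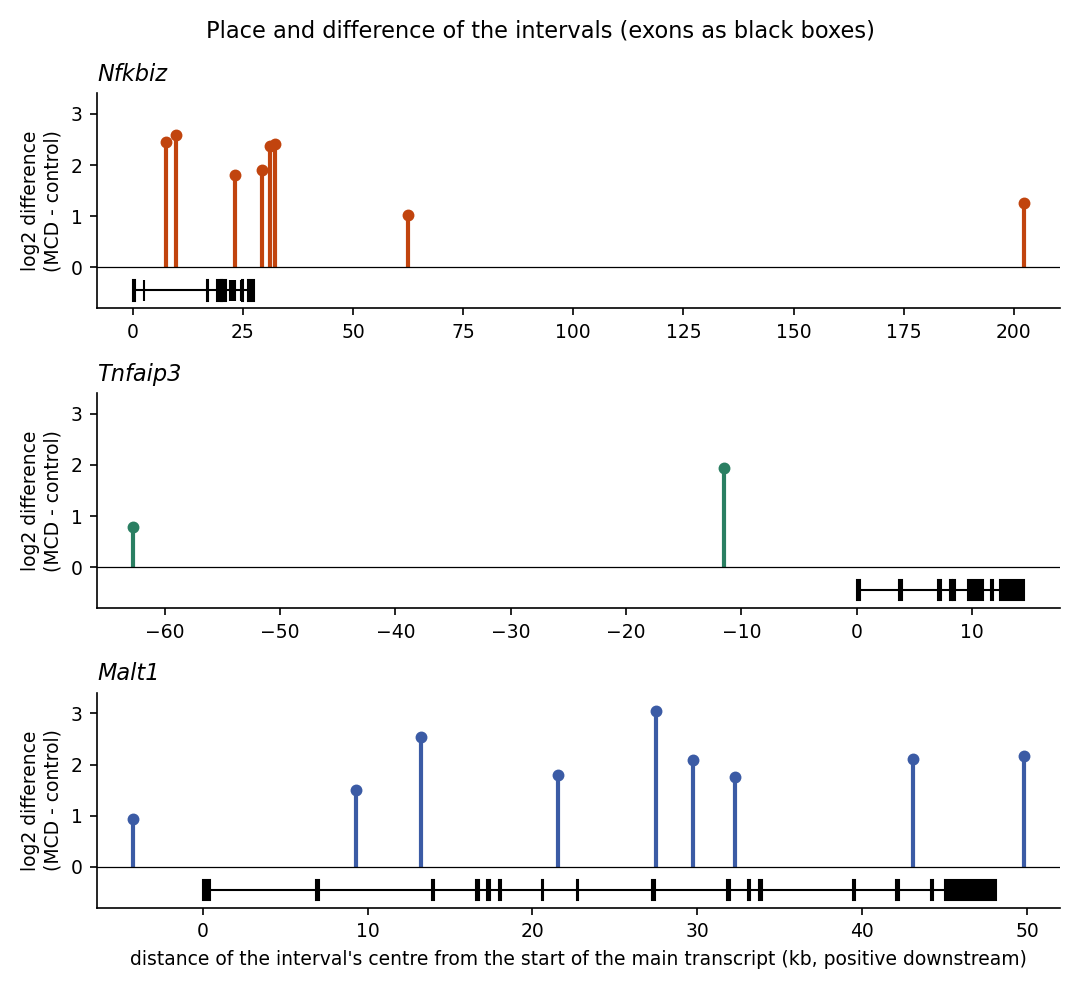
Difference of the condition means (log2, MCD minus control) of each interval against its distance from the start of the main transcript (kb, positive downstream), for Nfkbiz, Tnfaip3 and Malt1, with exons as black boxes. The intervals of Malt1 lie along the whole gene, those of Nfkbiz form a cluster of 6 over the gene and its end with 2 apart, and those of Tnfaip3 lie upstream.

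Nfkbia and Nfkbid had no listed interval, and none lay within 50 kb of either gene. Nfkbia (ENSMUSG00000021025.8) lies on the minus strand at chr12:55489410-55492647, and the nearest row was 120756 bp away. It was assigned to Psma6, with 34.6 reads in control and 71.7 in MCD, a difference of 1.05. Nfkbid (ENSMUSG00000036931.15) lies on the plus strand at chr7:30421732-30428746, and the nearest row was 165415 bp away. It was assigned to Zbtb32, with 97.4 reads in control and 169 in MCD, a difference of 0.79. The absence of a row says only that no interval near these genes was kept by the study's comparison.

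None of the 19 intervals lay within 3 kb of the start of a main transcript. Counted from the nearest start of any transcript with an Entrez ID, 5 did (26.3%, against 16.5% of all rows), 4 of Malt1 and 1 of Nfkbiz, all near starts of short transcripts annotated as retained introns or processed transcripts. The Malt1 interval with the largest difference, for example, lay 16 bp from such a start. Of the members, 10 were centred inside the gene (52.6%), as were 51.5% of all rows inside a protein-coding gene. No row overlapped the promoters that RefSeq gives for Nfkbia, Nfkbid and Tnfaip3, from 250 bases before to 50 after each start. In these promoters the κB consensus was found for Nfkbia in 1 of 1, for Nfkbid in 1 of 3 and for Tnfaip3 in 1 of 2, against 4.51% of the 32851 promoters of the same length. For these 3 genes the κB letters stood in a promoter where no interval was listed. The promoter set used held no entry for Nfkbiz or Malt1, so their promoters were not searched.

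The AP-1 consensus was found in 3 of the 19 members (15.8%), in 39.6% of all rows and in 52.8% of the gained rows. It was in both Tnfaip3 intervals, in 1 of the 8 of Nfkbiz and in 0 of the 9 of Malt1. The κB consensus was found in 1 member (5.26%), in 7.03% of all rows and in 8.67% of the gained rows. Neither motif was found in 16 of the 19 members, against 41.9% of the gained rows. Of the top 10% of rows by difference, 48.0% held the AP-1 consensus, and of the 9 members among them 0 did. Of the gained rows inside protein-coding genes 52.4% held it, and of the 10 members there 0 did. These shares were set side by side and not tested. With 150 bp added on each side, the AP-1 consensus was found in 6 of 19 members, against 66.5% of the gained rows. A missing match says only that these letters are not in the window.

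For other motifs the members' shares are given beside those of the gained rows. The PU.1 consensus GAGGAAG, of the factor that defines the macrophage lineage, was in 3 members (15.8%), 2 of Nfkbiz and 1 of Malt1, against 14.9% of the gained rows. The C/EBP consensus TTGCNNAA, of a family active in myeloid cells, was in 3 members, 1 of Nfkbiz and 2 of Malt1, against 11.3% of the gained rows. The CRE consensus TGACGTCA, the interferon-regulatory factor consensus and the STAT consensus TTCNNNGAA were in 0 members, against 1.47%, 2.44% and 6.20% of the gained rows. The CArG consensus of serum response factor was in 1 member, Malt1 intron 2, against 1.08% of the gained rows. The median GC content was 44.3% for the members, 40.8% for Malt1 and 48.5% for Nfkbiz, against 47.8% over all rows.

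Genes with many intervals were rare in the table. Of the 2582 genes with a row, 1881 had a single row and 15 had at least 8. Nfkbiz and Malt1 were among 11 of these 15 whose rows were all gained. The cutoff of 8 is the count of Nfkbiz itself, and 7 of its intervals lay within 50 kb of the gene. With all annotated transcripts its lone intervals were nearest to other genes, which takes Nfkbiz below 8 rows. Nfkb1, which encodes the p105 precursor of the NF-κB subunit p50, had 20, the most of any gene, with a median difference of 1.72 from a median control level of 14.3 reads. The share with the AP-1 consensus was 3 of 20 for Nfkb1 and 2 of 10 for Bcl2l11, which encodes the cell death protein Bim. It was 6 of 8 for Dlgap2 and 5 of 8 for Ptprj. Malt1, with 0 of 9, and Nfkbiz, with 1 of 8, had the lowest shares of the 11 genes.

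**Figure D4:**
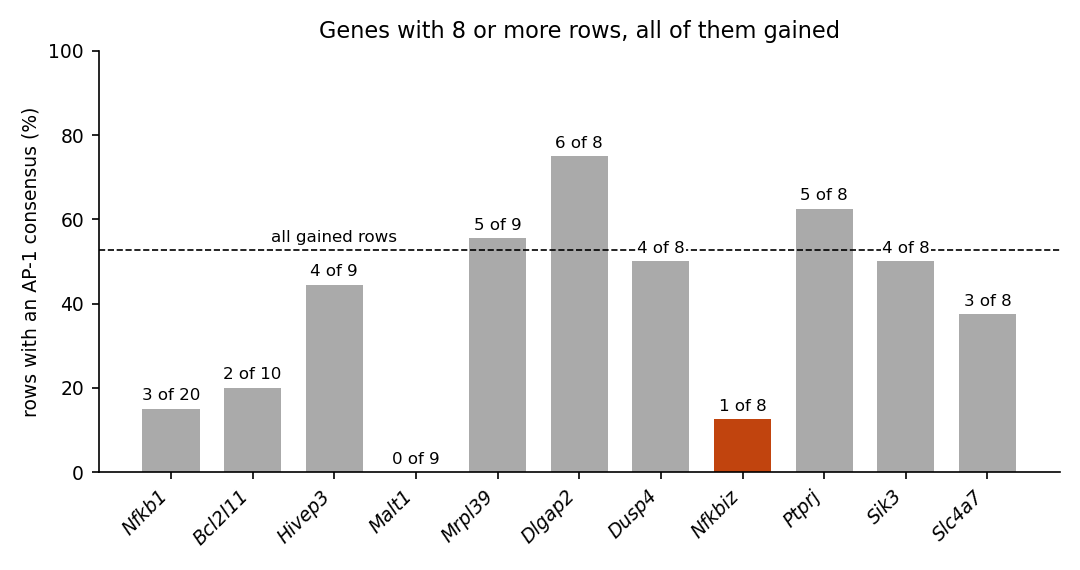
Percent of rows that held the AP-1 consensus in the 11 genes with at least 8 rows that were all gained, with the count above each bar and the share over all gained rows (52.8%) as a dashed line. Malt1 (0 of 9, no bar), Nfkbiz (1 of 8, in colour), Nfkb1 (3 of 20) and Bcl2l11 (2 of 10) lie furthest below the line.

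The other genes of the pathway, 67 genes in 8 groups, were looked up in the same table. A row was assigned to 21 of them (31.3%), against 11.5% of all annotated genes with an Entrez ID. The list was drawn up with earlier results of these data known, so no enrichment was tested or is read from these shares. For Ripk2, Zfp36l1 and Zfp36l2 every row lay at least 111068 bp from a start of the gene. With starts of all annotated transcripts 15 of the 67 had a row, and no matching share over all genes is given. Of the 67, 14 had gained rows only, 4 lost rows only, 3 had both and 46 had none. Their 63 rows were gained in 47 cases (74.6%), close to the share over all rows. That share rests in part on 1 gene, since Nfkb1 alone held 20 of the 63 rows, all of them gained. Lost rows were found among these genes. Since the members were selected on this comparison, their lack of lost rows is not read as a difference.

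The partners of the 5 genes differed among themselves. Of the partners of A20 and other deubiquitinases, 4 of 10 had gained rows only. Over all annotated genes with an Entrez ID, 8.63% had a gained row, with or without lost rows. These counts were not tested, since the list of genes was drawn up with earlier results of these data known. Tnip1, whose protein binds A20 to ubiquitin chains, had 4 gained rows with differences from 0.73 to 1.51. Tax1bp1, an adaptor of A20, had 1 row with a difference of 1.24, and Otulin and Otud7b, which cleave ubiquitin chains, had 1 row each, at 0.64 and 1.37. Tnip3 had 1 gained row (1.72) and 1 lost row (-0.64).

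Of the 6 CARD proteins and partners of Malt1, Card10, a scaffold protein that can assemble with Bcl10 and Malt1, had 1 gained row, from 10.5 to 53.5 reads, a difference of 2.35. Bcl10 and Card9, the scaffold used in myeloid cells, had none. The 4 lost rows assigned to Ripk2, a kinase downstream of NOD receptors, lay at least 504739 bp from its start.

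The other IκB genes Nfkbib and Nfkbie, as well as Bcl3 and Nfkbil1, had no row. Of the subunit genes, Nfkb1 and Rel had gained rows and Nfkb2, Rela and Relb had none. The 2 rows of Rel, which encodes c-Rel, had differences of 2.42 and 2.43. Among 14 genes of IKK and other kinases, 11 had no row, including Chuk, Ikbkb and Ikbkg, which encode IKK itself. Map3k8, a kinase kept inactive by p105, had 1 gained row (0.97), and Map3k14, the kinase of the noncanonical pathway, had 1 lost row (-1.10). Tab2 had 1 of each (1.79 and -0.88), with the lost row 116510 bp from its start.

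Of the TRAF genes and ubiquitin ligases, 4 of 14 had gained rows, against 8.63% of all annotated genes with an Entrez ID. This share was not tested either, for the same reason. None of these genes had a lost row. Peli1, a ubiquitin ligase of Toll-like receptor signalling, had 6 gained rows with differences from 0.96 to 2.99. They lay at a median of 40238 bp from the nearest start of Peli1. The row with the largest difference lay 77898 bp away and had 4.39 reads in control. Traf1 had 2 gained rows (2.19 and 0.55), and Traf3 and Traf5 had 1 each (1.00 and 0.96). Of 9 receptor adaptor genes only Irak3, which encodes an inhibitor of Toll-like receptor signalling, had a row, from 7.69 to 40.8 reads, a difference of 2.41. Of the genes that act on RNA, Rc3h1 had 1 gained row (0.85) and Zfp36l2 had 3 lost rows with differences from -1.24 to -0.63. These lost rows lay at least 113603 bp from the start of Zfp36l2. Zfp36l1 had 2 gained and 2 lost rows, all at least 111068 bp from its start.

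**Figure D5:**
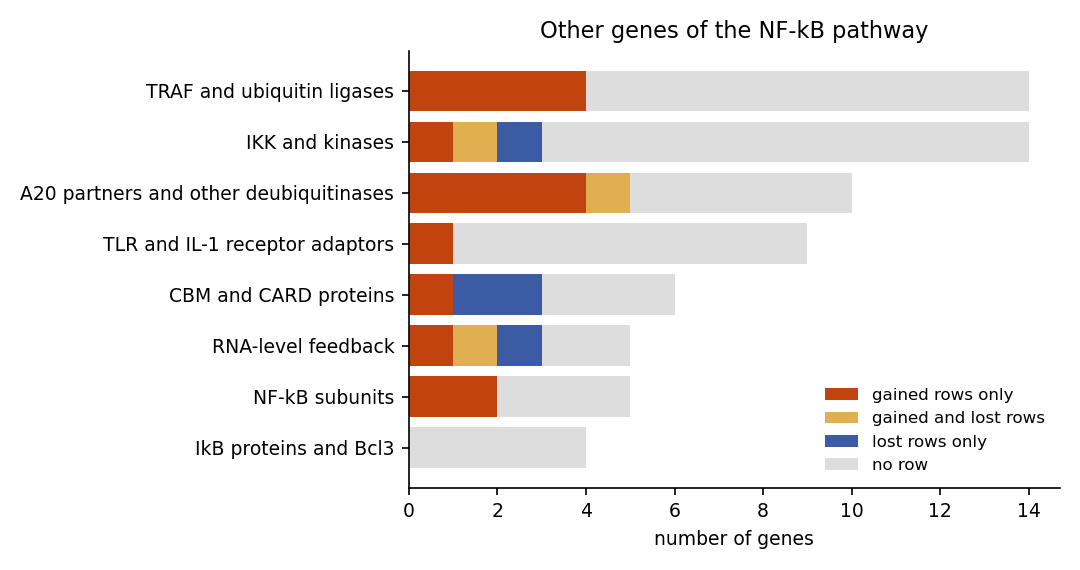
Number of genes in each of the 8 groups of other NF-κB pathway genes that had gained rows only, lost rows only, both or no row. The bars for TRAF genes and ubiquitin ligases and for A20 partners each show 4 genes with gained rows only, and that for IκB proteins and Bcl3 shows none.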

How the data were processed

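ATAC-seq was performed by the authors on RAW macrophages, 2 control and 2 MCD samples. Per the methods and processing notes, reads were trimmed with cutadapt 2.6 and aligned to GRCm38 with Bowtie2 2.4.4, duplicates were removed with Picard, and peaks were called with MACS2 (MACS3 3.0.0 in the notes). Conditions were compared in DiffBind. Normalization and treatment of the Tn5 offset are not given in the sources used here. The deposited log2 condition means of normalized reads were used. The authors' columns of fold change, p-value and FDR hold their own comparison and were not used, nor were RNA-seq values. Without values per sample, no test, depth or check of macrophage markers was possible.

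Intervals were assigned by their centre to the closest TSS among GENCODE M21 transcripts that carry an Entrez ID. The main transcript is the longest well-supported basic one. Promoter sequences came from RefSeq (GRCm38.p6). Intron and exon numbers follow the main transcript. Motif search and assignment were tested on simulated data. Calculations used Python 3.11.15, numpy 2.4.6 and pandas 2.3.3. Members and lists were chosen with earlier results of these data known. The genes named were the members, the nearest row to a member without one, listed pathway genes with a row (1 of them is not reported here), and the 3 rows most like the member row with the largest difference. Genes with 8 or more rows, pathway genes without a row and GC and repeat content were named after their values were seen. Alternatives were other TSS sets, motif windows, promoter widths, filters on low values and scales.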

Additional observations from a re-analysis of the deposited data

How the results depend on the processing

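No paired analysis was possible because the columns used carry condition means and no replicate number, so the planned fits with a replicate block and without each replicate were not run, and no other scaling was open to trial. The count of 19 member intervals was 19 with protein-coding starts, with distance from the edge and with at least 32 reads in the higher mean, 17 within 50 kb of a gene and 15 with all annotated transcripts. All of them were gained under each. With starts of all annotated transcripts, 1 member held the AP-1 consensus in place of 3 and 0 held the κB consensus in place of 1. Some of the intervals reassigned to other genes held these motifs. With 150 bp added on each side the counts of members with the AP-1 and the κB consensus were 6 and 2. A looser κB consensus gave 1. Within 1 kb of a start lay 3 intervals in place of 5 within 3 kb, and 0 with GENCODE basic transcripts, an alternative chosen after seeing the data. With 10 reads added to each mean the median difference was 1.52 in place of 1.94, from 0.73 to 1.96. Pathway genes with a row numbered 21, 19 with protein-coding starts, 15 with all transcripts and 21 with basic transcripts, all 3 chosen after seeing the data. The values rest on 2 samples per condition, with no error known, and ratios of intervals with a few reads in control depend on the reads added.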
